A study of Mus musculus with 29 samples.

Results

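Lung RNA of mice without Klf15 was compared 8 h after dexamethasone and 8 h after saline, with 4 single-colour arrays in each group, 8 of the 29 arrays of the study. Arrays were taken by their labelled genotype, treatment and time. All mice were C57BL/6, 6 to 8 weeks old, and dexamethasone was given at 2.5 mg/kg. The deletion, labelled KO and Klf15-/-, is carried by the treated mice and by their saline controls alike. The other groups drawn on below are knockout mice at 4 h (4 arrays with dexamethasone, 3 with saline) and wild-type mice at 8 h (3 with dexamethasone, 3 with saline). By its title the study is about the time course of gene regulation by the glucocorticoid receptor and Klf15 as 2 parts of a feed-forward circuit, and the knockout arrays at 8 h hold the response that remains without the second part. The labels describe the samples as biological replicates and name neither the animal behind each array nor the part of Klf15 that was removed.

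Dexamethasone is a synthetic glucocorticoid that binds the glucocorticoid receptor, the product of Nr3c1. The bound receptor moves to the nucleus, where it occupies short palindromic DNA elements and raises transcription of nearby genes, and it represses many inflammatory genes through other transcription factors. Klf15 is a zinc-finger transcription factor of the Krüppel-like family, itself induced by the receptor, and is known for its control of amino acid and lipid use. In lung, glucocorticoids are known for restraint of inflammation, for loss of lymphocytes, and for effects on surfactant, ion transport and airway tone.

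Signals are given as log2 of the background-corrected signal minus the array's own 75th percentile, so a value of 0 is that percentile, and signals of different probes cannot be set against each other. A change is the mean of the dexamethasone arrays minus that of the saline arrays on this log2 scale, with its standard error (SE). Adjusted p-values are Benjamini-Hochberg values of limma's moderated test over all genes tested, and a gene is said to have risen or fallen where this value is under 0.05. Each gene is represented by its brightest probe. Values on single arrays are listed in the order of the labels' replicate numbers, 61, 62, 63 and 64 for dexamethasone and 45, 46, 47 and 48 for saline. Precision is limited by the 4 arrays in each group. On the dexamethasone arrays 76.6 to 81.9% of probes were well above background, and on the saline arrays 76.7 to 82.9%. The 75th percentile of the processed signal lay between 1811 and 2343 on the former and between 2518 and 3064 on the latter, a gap that the scaling removes. Replicate arrays correlated with r of 0.979 to 0.988 (dexamethasone) and 0.980 to 0.990 (saline).

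Klf15 itself (chromosome 6) read 0.46, 1.18, 0.86 and 0.62 on the dexamethasone arrays and -0.63, -0.50, 0.08 and 0.49 on the saline arrays. The highest saline array lay above the lowest dexamethasone array. The change was 0.92 (SE 0.21, adjusted p = 0.001), and 2 probes both rose, by 0.48 and 0.92. In wild-type lung at 8 h the same probe stood at 3.69 ± 0.26 with dexamethasone and 2.90 ± 0.18 with saline (SD, n = 3 each), against 0.78 ± 0.32 and -0.14 ± 0.52 in the knockout (SD, n = 4 each). The knockout arrays were thus lower for Klf15 in both treatments, while a signal that rose with dexamethasone remained. The sources used here do not say whether the probes lie inside the removed part of Klf15, so this remaining signal does not measure the protein. Defining transcripts of lung were present on all 8 arrays. Sftpc, a surfactant protein of alveolar type 2 cells, read 7.87 ± 0.18 and 7.38 ± 0.14 with dexamethasone and saline (SD, n = 4 each), Scgb1a1 of club cells 7.88 ± 0.20 and 7.42 ± 0.19, and Ager of alveolar type 1 cells 5.0 ± 0.15 and 4.95 ± 0.30.

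Of 15362 genes tested, 6585 (42.9%) changed in the knockout at 8 h. Of these, 3867 (25.2% of the genes tested) rose and 2718 (17.7%) fell. Most changes were small: 5640 were under 2-fold, and 436 rises (2.84%) and 509 falls (3.31%) reached 2-fold, together 6.15% of the genes tested. The median change over all genes was 0.10. For 5642 genes (36.7%) no dexamethasone array overlapped a saline array, 3390 of them with the dexamethasone arrays higher (22.1%) and 2252 lower (14.7%). Counts of changed members in a group of genes are to be read against these shares. Counts at 4 h or in wild-type lung are to be read against the shares of those comparisons, given below.

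The split into rises and falls depended on the scaling and on the probe chosen for each gene. Rises made up 58.7% of the changed genes as processed here and 62.6% when arrays were scaled to their medians (3314 rose, 1977 fell). Under quantile normalization they made up 48% (2807 and 3043), after normexp background correction with quantile normalization 48.6% (2621 and 2774), and in the authors' deposited log2 values 49.3% (2758 and 2841). With the mean of a gene's probes the share was 51.5% (3167 and 2979), with its dimmest probe 46% (2745 and 3228), and with quantile normalization and the mean of probes together 42.2% (2374 and 3255). The direction of a single gene was more stable, since 98.5% of the genes changed as processed here kept their sign under quantile normalization and 88.8% with the dimmest probe. Single-slide comparisons gave the same picture. On the 2 slides that held arrays of both groups, 97.8% of 5503 and 98.7% of 5271 genes kept the sign they had on the other arrays.

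Probes of 1 gene did not always change together. Of 2608 changed genes with several probes, 1806 (69.2%) had all probes on the same side of 0. The share was 86.3% for falls (801 of 928) and 59.8% for rises (1005 of 1680). It was 94.1% where the change reached 2-fold (224 of 238) and 66.8% below that. In 224 genes, 1 probe rose and another fell, against 2 such genes in wild-type lung at 8 h and 287 in the knockout at 4 h. Chrdl1, an inhibitor of bone morphogenetic proteins, read 0.26 higher on its brightest probe without passing the test, while its kept probes ranged from -1.99 to 0.45. Rad21, a subunit of cohesin, rose by 0.47 on the brightest and fell by 1.07 on the dimmest probe, and Dnah2, a dynein of cilia, rose by 0.86 and fell by 0.97 in the same way. Fam13c went the other way, with -0.56 on its brightest and 1.11 on its dimmest probe. For these genes no direction can be read. With genes that had a probe of opposite sign set aside, 5783 changed genes remained (3192 rises and 2591 falls), among them 931 of the 945 that reached 2-fold (433 and 498).

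The balance of rises and falls also differed with brightness. Sorted into 5 equal groups by mean signal, rises made up 43.9%, 37.4%, 45.6%, 64.9% and 85.2% of the changed genes from the dimmest to the brightest group. The median change of all genes in these groups, changed or not, was 0.29, -0.05, -0.02, 0.09 and 0.23, so the dimmest and the brightest group both lay above 0 while falls outnumbered rises in the former. A check within genes used 2547 genes whose brightest and dimmest probes stand at least 2 log2 units apart. The mean log2 ratio of their brighter over their dimmer probe, centred on all arrays, was 0.12 ± 0.12 on the dexamethasone arrays (0.014 to 0.29) and -0.16 ± 0.04 on the saline arrays (-0.21 to -0.12; SD, n = 4 each). The groups did not overlap and differed by 0.28, or by 0.20 after quantile normalization. This difference was known from earlier results of these data and is given without a test. With this bright-to-dim ratio as a covariate 5411 genes changed, 3322 up and 2089 down (61.4% rises). Of the 6585 changed genes 3701 passed there too, and 98.4% kept their sign. The many small rises of bright genes stand beside the shift of this ratio between arrays, and the part of the shift in them was not tested.

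**Figure D1:**
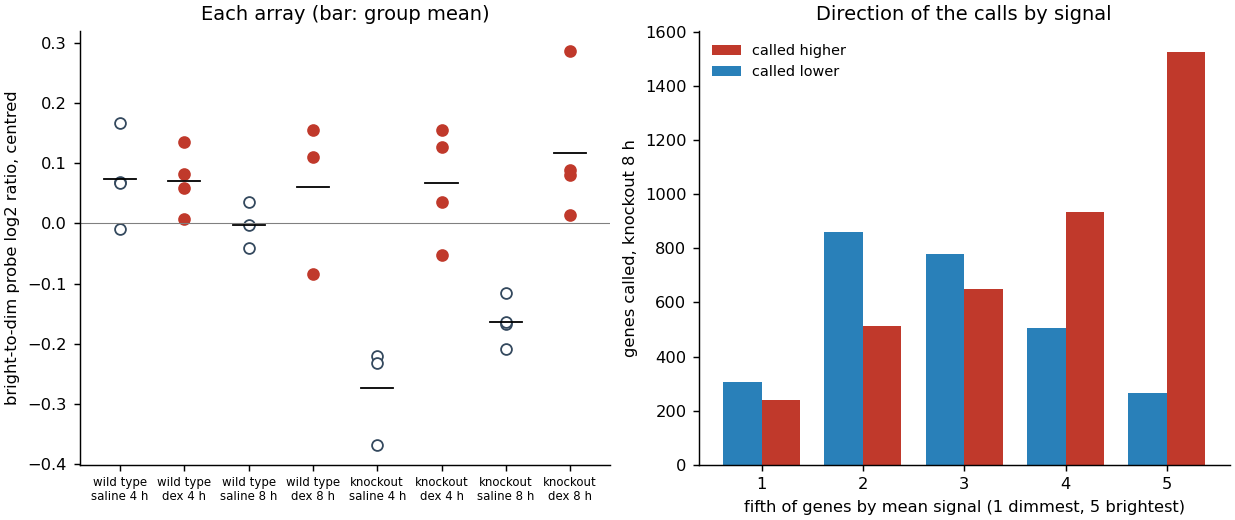
Left, the average log2 ratio of a gene's brighter over its dimmer probe (y axis, centred on all arrays) for each array of the 8 groups, with bars at the group means: the 4 dexamethasone arrays of the knockout at 8 h lie between 0.014 and 0.29, above the saline arrays of the same genotype and time (-0.21 to -0.12). Right, the number of genes that rose or fell (y axis) in 5 groups of genes by mean signal (x axis): rises outnumber falls by 1526 to 266 in the brightest group and are outnumbered by 861 to 514 in the second dimmest.

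The largest rises were in genes of varied function. Doc2b, a calcium sensor of vesicle release, read -1.77, -2.77, -2.60 and -2.37 with dexamethasone and -6.15, -6.73, -7.12 and -7.28 with saline. The groups stood far apart and the change was 4.44 (SE 0.35, adjusted p = 2e-09), or 21.7-fold. Kcnt1, a sodium-activated potassium channel, read -1.99, -1.73, -2.20 and -1.62 against -6.85, -6.88, -6.62 and -5.87, a change of 4.67 (SE 0.36, adjusted p = 7.8e-10) and the largest by value on the brightest probe among the genes singled out. Its other 2 probes gave 2.87 and 0.04, so the size depends on the probe and on the dimmest 1 the call was lost. Clca3a1, a calcium-activated chloride channel regulator, read 1.16, 1.05, 0.67 and 0.99 against -2.81, -2.47, -2.56 and -2.07. It rose by 3.45 (adjusted p = 8.8e-12), and its near-identical neighbour Clca3a2 by 3.31; their probes may share signal. Tecrl, related to the enzymes of fatty acid elongation, rose by 3.42 (adjusted p = 2.3e-13), and Lrrc4, a membrane protein of synapses, by 3.37. Kcnab1, a potassium channel subunit, rose by 3.43 on 1 probe and by 1.01 on another, where it was no longer past the threshold.

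Some of the largest rises rest on dim probes. The saline readings of Doc2b and Kcnt1 above lay in the range of the dimmest of the 5 groups of genes by mean signal (-9.20 to -4.01). Mstn, the muscle growth inhibitor myostatin, was well above background on 3 of 4 dexamethasone arrays and on no saline array, which gives a rise of at least 2.77-fold (adjusted p = 0.0024), and its dexamethasone arrays ranged from -7.97 to -3.92. Dcpp1, a secreted salivary-type protein, rose by 3.33 but was well above background on 1 of 4 saline arrays. The skeletal muscle markers moved unevenly beside Mstn. Their median per array, taken against the saline means, lay between 0.39 and 1.02 on the dexamethasone and between -0.21 and 0.35 on the saline arrays, and 2 of 15 rose and 1 fell, with 4 rises without saline array 48 and no fall without saline array 45; the part of muscle RNA in the Mstn value was not tested.

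The largest falls were likewise varied in function. Adgre4, an adhesion receptor of monocytes and macrophages, read -6.62, -6.01, -5.93 and -5.55 with dexamethasone and -1.99, -1.99, -1.60 and -2.20 with saline. Every dexamethasone array lay below every saline array, and the fall was by 4.08 (SE 0.37, adjusted p = 1e-08), or 16.9-fold. Apln, the peptide apelin of endothelial tip cells, read -1.78, -1.94, -1.70 and -1.67 against 1.79, 1.75, 1.74 and 1.52. It fell by 3.47 (SE 0.21, adjusted p = 1.5e-11), and its 3 probes fell by 1.69 to 3.47. Ccn5, a matricellular protein, read -1.41, -1.96, -1.51 and -1.22 against 1.69, 1.65, 1.59 and 1.62, a tight grouping on both sides with a change of -3.16 (adjusted p = 2.9e-10). Mmp12, the macrophage elastase, was not well above background on any dexamethasone array and fell at least 9.21-fold (adjusted p = 2.4e-09), and Car12, a carbonic anhydrase, fell at least 4.41-fold for the same reason. Gbp4, an interferon-induced GTPase, fell by 3.63 and S1pr5, the receptor that lets natural killer cells leave tissues, by 3.55. Syt15 fell by 3.35 and 1.40 on its 2 probes. Bank1 and Fcer2a of B cells fell by 3.13 and 3.05, Serpinb10 by 3.11 and Disp2 by 3.06.

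**Figure D2:**
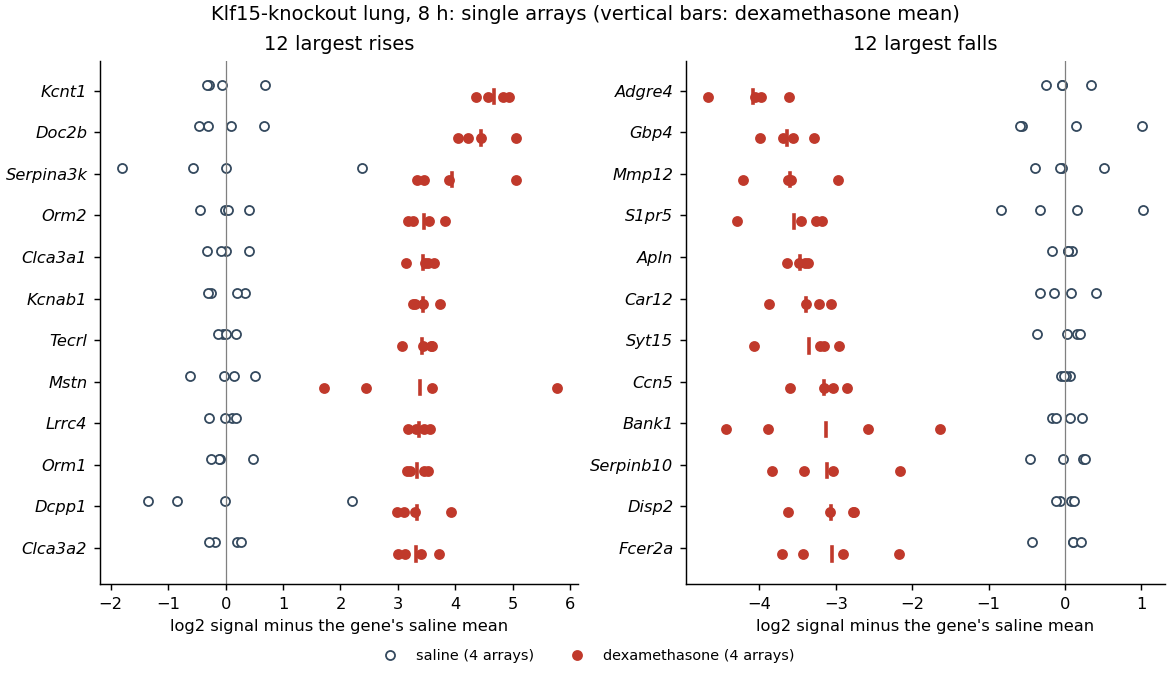
The 12 largest rises (left) and 12 largest falls (right) among genes whose groups do not overlap and whose probes lie on 1 side of 0. Points are single arrays as log2 signal minus the gene's saline mean (x axis), dexamethasone and saline in different colours, with a vertical bar at the dexamethasone mean. Apln and Ccn5 show tight saline arrays and dexamethasone arrays more than 2 log2 units below them, while Serpina3k and Mstn show widely spread arrays.

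Among genes known to be induced by glucocorticoids, 27 of 32 tested rose and none fell, with a median change of 1.01 beside 0.10 for all genes. Per1, a clock gene with a known receptor element, read 2.79, 2.45, 2.51 and 2.67 with dexamethasone and 2.80, 2.77, 2.71 and 2.41 with saline. The arrays overlapped throughout, with a change of -0.07 (SE 0.18, adjusted p = 0.79). The other members that did not pass were Rgs2 (-0.05), Cebpb (-0.03), Rhob (0.20) and Lcn2 (0.41). Fkbp5, a chaperone partner that dampens the receptor, read 1.76, 1.50, 1.04 and 1.01 against -0.41, 0.01, -0.03 and 0.51. It rose by 1.31 (SE 0.44, adjusted p = 0.021) on its brightest probe and by 2.33 and 2.12 on the other 2; without saline array 45 or dexamethasone array 61 the adjusted p was 0.059 or 0.057. Tsc22d3, known as GILZ and a mediator of anti-inflammatory action, read 5.08, 5.11, 4.99 and 4.96 against 4.33, 4.49, 4.56 and 4.48. All dexamethasone arrays were higher, with a change of 0.57 (SE 0.15, adjusted p = 0.003) that fell short of the threshold under quantile normalization (0.30, adjusted p = 0.11) and in the authors' deposited log2 values (0.36, adjusted p = 0.061).

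Sgk1, a kinase that promotes sodium uptake, read 4.75, 5.51, 4.88 and 4.92 with dexamethasone and 3.62, 3.80, 3.76 and 3.82 with saline. The lowest treated array was well above the highest control, and the change was 1.27 (SE 0.12, adjusted p = 1.4e-08). Cdkn1a, the cell cycle inhibitor p21, read 3.94, 3.34, 3.14 and 3.47 against 1.20, 1.15, 0.94 and 1.41 and rose by 2.30 (adjusted p = 4.4e-10). Mt2, a metal-binding metallothionein, read 5.91, 5.51, 5.21 and 5.53 against 3.08, 3.27, 3.26 and 3.82, with no overlap and a change of 2.18 (SE 0.19, adjusted p = 7e-09). Mt1 rose by 1.52, though probes of the 2 metallothioneins may share signal. Of the 13 metallothionein and zinc genes tested, 4 rose and 1 fell: the zinc importer Slc39a10 fell by 0.58. Lpin1, a phosphatidic acid phosphatase, rose by 1.86, Glul, glutamine synthetase, by 1.62, and Sult1a1, a sulfotransferase, by 1.37. Il1r2, the decoy receptor for interleukin 1, rose by 1.48, and Ddit4, an inhibitor of mTOR, by 1.38.

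The receptor and its helpers moved little as a list, with the largest change in Fkbp5, given above. Nr3c1 (4 probes) read 2.01, 2.28, 2.11 and 2.24 with dexamethasone and 2.55, 2.49, 2.33 and 2.36 with saline. It fell by 0.27 (SE 0.08, adjusted p = 0.012), with its probes between -1.36 and -0.27, and scaling to array medians left it short of the threshold (-0.24, adjusted p = 0.13). Of 17 genes for the receptor, its chaperones and its cofactors, 7 rose and 2 fell, with a median of 0.15. Under quantile normalization 4 rose (median -0.03), on the dimmest probes 5 fell (median -0.06), and 4 rose without dexamethasone array 61. Fkbp4, the co-chaperone that helps the receptor reach the nucleus, fell by 0.39, and Ncoa1, a coactivator, rose by 0.84. Among genes that restrain NF-kB and MAP kinase signalling, 13 of 24 rose and 2 fell (median 0.28), with 7 rises under quantile normalization and 4 falls on the dimmest probes. Nfkbia, the inhibitor that holds NF-kB in the cytoplasm, rose by 0.81, Dusp1, a MAP kinase phosphatase, by 0.70, and Errfi1, an inhibitor of the EGF receptor, by 0.92. Socs1, an inhibitor of cytokine signalling that cytokines induce, fell by 1.03, and Dusp2 by 1.07. In the Krüppel-like family 5 of 16 rose and 2 fell. Klf9, up by 0.44, and Klf15 as above were among the rises and Klf12, down by 0.66, among the falls. Under quantile normalization 1 rose and 3 fell, and without saline array 47 3 rose. Klf9 lost its call under quantile normalization (0.25, adjusted p = 0.097) and with the bright-to-dim ratio as a covariate (0.34, adjusted p = 0.15). Klf12 lost its call on its dimmest probe (-0.42, adjusted p = 0.073).

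Promoters of the changed genes were compared next, since the receptor acts through a known DNA element. The core of the receptor's palindromic element was taken as the half-site GNACA, any 3 bases, and the half-site TGTNC, where N is any base. It has 13 bases and is its own reverse complement, so that 1 search covers both strands, and was sought in RefSeq windows of GRCm38.p6 from 250 bases before to 50 after each gene's start. Such a window was at hand for 12257 of the 15362 genes tested and 193 of the 247 genes chosen for description. The 4 promoters below are those of the genes chosen for description that rose at least 2-fold and hold the letters upstream of the start; other genes that rose and hold them are named after the counts. The promoters are shown as the 250 bases before it, 5′ to 3′ along the gene's own strand, with the letters of the core in capitals. They come from RefSeq at chr8:94178839-94179088 (plus strand, Mt1), chr10:21993640-21993889 (plus strand, Sgk1), chr12:104153873-104154122 (minus strand, Serpina3c) and chr14:8309780-8310029 (minus strand, Fam107a).
Mt1: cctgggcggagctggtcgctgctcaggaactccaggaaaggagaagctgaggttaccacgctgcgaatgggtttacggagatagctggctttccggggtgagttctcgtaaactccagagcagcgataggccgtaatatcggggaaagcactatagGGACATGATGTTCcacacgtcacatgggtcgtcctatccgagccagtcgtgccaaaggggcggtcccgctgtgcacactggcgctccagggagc
Sgk1: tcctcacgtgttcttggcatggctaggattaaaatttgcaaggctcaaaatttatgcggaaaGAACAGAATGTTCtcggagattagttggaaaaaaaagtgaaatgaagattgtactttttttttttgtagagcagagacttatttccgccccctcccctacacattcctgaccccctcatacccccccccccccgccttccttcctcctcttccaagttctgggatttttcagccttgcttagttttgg
Serpina3c: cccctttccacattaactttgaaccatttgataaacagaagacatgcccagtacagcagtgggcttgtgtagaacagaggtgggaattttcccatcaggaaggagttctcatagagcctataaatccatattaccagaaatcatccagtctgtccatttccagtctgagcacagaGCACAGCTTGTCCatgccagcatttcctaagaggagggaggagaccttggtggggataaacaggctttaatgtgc
Fam107a: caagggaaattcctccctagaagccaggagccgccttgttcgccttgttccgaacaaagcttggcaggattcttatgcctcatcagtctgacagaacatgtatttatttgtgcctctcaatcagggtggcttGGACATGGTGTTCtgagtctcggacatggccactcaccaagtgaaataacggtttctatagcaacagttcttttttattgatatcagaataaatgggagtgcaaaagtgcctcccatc

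The core began at -94 in Mt1, -188 in Sgk1, -75 in Serpina3c and -118 in Fam107a, counted from the start. Among all windows of the table, 156 of 32851 (0.475%) held it, and among tested genes 58 of 12257 (0.473%). It stood in 14 of 338 genes that rose at least 2-fold (4.14%), in 10 of 2739 that rose less (0.365%) and in 32 of 7057 that did not pass the test (0.453%). Among falls it stood in 1 of 384 of at least 2-fold (0.26%, Cenps) and in 1 of 1739 below that (0.0575%, Ptpdc1). The full palindrome, AGAACA, any 3 bases and TGTTCT (15 bases, again its own reverse complement, and containing the core), was in 3 windows of the table (0.00913%), and among tested genes in Sgk1 alone. A match is a description of the letters and shows no binding.

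Fam107a, an actin-associated protein known to respond to stress hormones, read 3.43, 2.94, 2.98 and 2.92 with dexamethasone and 0.37, 0.44, 0.59 and 0.87 with saline. Its arrays were far apart, with a change of 2.50 (SE 0.14, adjusted p = 4.2e-12). Serpina3c, a serine protease inhibitor, read 0.16, 0.52, 0.26 and 0.19 against -1.30, -1.14, -1.48 and -1.35 and rose by 1.60 (adjusted p = 2.7e-10). Gnmt, which methylates glycine, read 0.82, 0.52, 0.37 and 0.62 against -1.83, -1.74, -1.86 and -1.49 and rose by 2.32 (adjusted p = 1.5e-13). The other 10 genes of the 14, beside these 3 and Sgk1, were Atp6v0a4 (1.83), Folh1 (1.55), Mt1 (1.52), Map7d2 (1.37), Tinagl1 (1.33), Map3k6 (1.29), Suox (1.26), Serpina3n (1.11), Lrrc52 (1.10) and Amy1 (1.09). At 4 h in the knockout 13 of the 14 had also risen, 9 of them by a larger value than at 8 h, and in wild-type lung at 8 h 12 had. Trim63, a muscle ubiquitin ligase whose window also holds the core, read 2.53 higher but did not pass the test (adjusted p = 0.078).

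**Figure D3:**
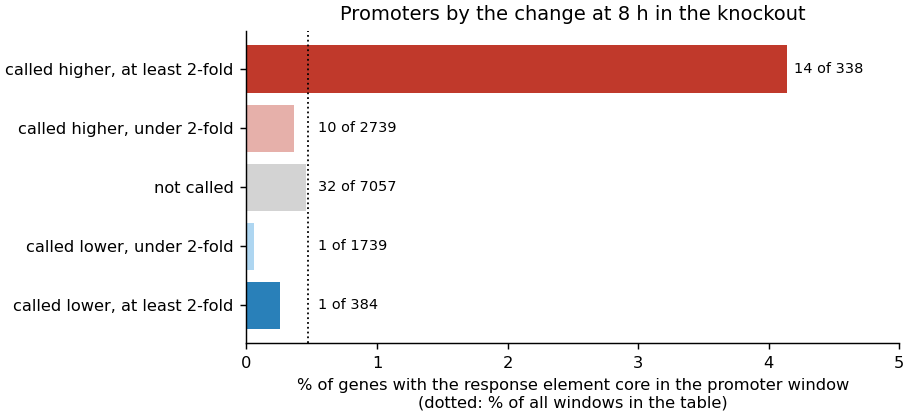
Percent of genes whose promoter window holds the core letters (x axis), in 5 classes of genes by their change in the knockout at 8 h (y axis), with a dotted line at the 0.475% of all windows. The bar for rises of at least 2-fold stands at 4.14%, and the other 4 bars lie below 0.5%.

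Acute-phase proteins and protease inhibitors rose in 13 of 23 genes tested and fell in 1 (median 0.74). Orm2, an orosomucoid of plasma, read -1.25, -1.81, -1.89 and -1.53 with dexamethasone and -5.08, -5.03, -5.51 and -4.66 with saline. Its 4 treated arrays were all higher by over 2 log2 units, with a change of 3.45 (SE 0.26, adjusted p = 4.4e-10). Orm1 rose by 3.33 and Orm3 by 1.55, but the 3 genes are near-identical and their probes may share signal. Serpina3k read -3.90, -4.01, -3.46 and -2.30 against -9.16, -7.34, -7.93 and -4.98, a wide spread on saline arrays of which 2 of 4 were well above background, and rose by 3.93 (adjusted p = 1.2e-05). Serpina3m rose by 2.24, and the Serpina3 genes form another family of close copies. Saa3, serum amyloid A, rose by 1.92, C3, the central complement protein, by 0.73, and Hp, haptoglobin, by 0.40. Itih4 fell by 0.68. The list's median was 0.57 on dexamethasone array 63 and 0.80 to 0.81 on the other 3, against -0.12 to 0.16 on the saline arrays. Liver markers stood beside it: Alb, albumin, differed by -0.16 without passing the test, and Apoa1 rose by 2.30.

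Epithelial ion and water transport genes rose in 15 of 22 and fell in 3 (median 0.47; 5 fell under quantile normalization), and the count of rises was 10 without saline array 46. Atp1b1, a subunit of the sodium pump, read 4.94, 4.66, 4.77 and 4.84 against 3.61, 3.57, 3.74 and 3.64 and rose by 1.16 (adjusted p = 4.6e-10). Scnn1a, a subunit of the epithelial sodium channel, rose by 0.26, whereas Scnn1b (0.19) and Scnn1g (0.18) did not pass. The water channels Aqp3 and Aqp4 rose by 1.01 and 0.60. Cftr rose by 0.47, and 2 anion transporters went the other way, Ano1 by -1.28 and Slc26a4 by -1.35.

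Markers of club and ciliated cells rose in 9 of 19 and fell in none (median 0.53); under quantile normalization 5 rose and 2 fell. Scgb1a1 rose by 0.46 as processed here and by 0.01 (adjusted p = 0.92) under quantile normalization, and Sftpc by 0.49 against -0.014, so no direction can be read for these bright genes. Spag6, of the ciliary axoneme, rose by 0.62, and Cldn10, a tight-junction protein, by 0.59. Alveolar type 2 markers rose in 3 of 15 and fell in 5 (median -0.14), with Etv5, a transcription factor of these cells, down by 0.63 and Cxcl15, an epithelial chemokine of the lung, down by 0.62; under quantile normalization none rose and 9 fell (median -0.39), and 3 fell without saline array 47. Type 1 markers rose in 3 and fell in 2 of 11 (median 0.07), and under quantile normalization 1 rose and 4 fell (median -0.22); Pdpn, podoplanin, rose by 0.80. Cytochromes P450 and detoxifying enzymes rose in 14 and fell in 2 of 27 (median 0.47), and under quantile normalization 8 rose (median 0.06). Cyp2b10, a P450 enzyme, rose by 0.78, and Por, the reductase that feeds the P450 enzymes with electrons, by 0.73.

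Genes of fatty acid oxidation and of the switch away from glucose rose in 19 of 29 and fell in none (median 0.52). Pdk4, the kinase that shuts pyruvate dehydrogenase, read 2.03, 1.82, 1.39 and 1.56 with dexamethasone and -0.89, -0.84, -0.73 and -0.60 with saline. The treated arrays all lay far above the highest control, with a change of 2.47 (SE 0.20, adjusted p = 2.4e-09). Angptl4, an inhibitor of lipoprotein lipase, rose by 1.67, Lpl, the lipase itself, by 1.92 (adjusted p = 1.1e-10), and Ppara, a receptor that drives fat oxidation, by 0.94. Pnpla2, the first lipase of stored fat, rose by 1.24. Cpt1a, the gate of mitochondrial fatty acid entry, differed by 0.01 and did not pass. Leaving out any 1 array left 18 to 20 rises.

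Adipocyte markers moved with some of these genes. Of 15 tested, 12 rose and none fell (median 1.33), and no array decided the count, which was 10 to 12 without each array in turn. Their median against the saline means was 1.05, 3.02, 1.60 and 0.88 on the dexamethasone arrays and 0.05, -0.20, -0.06 and 0.40 on the saline arrays, so array 62 was highest and no array overlapped. The log2 of their summed signal was 6.27 to 6.70 with dexamethasone and 5.19 to 5.36 with saline, and 14 or 15 of 15 were well above background on every array. Adipoq, adiponectin, rose by 2.31, Cfd, adipsin, by 2.58, and Plin4, a coat protein of lipid droplets, by 2.47, whereas Plin1 (1.23) and Lipe (0.04) did not pass. Fabp4 (2.23) belongs to both lists. At 4 h in the knockout 5 of the 15 had risen (median 0.24), and in wild-type lung at 8 h 2 had (median 0.27). Of all genes 23.8% rose in the former comparison and 9.46% in the latter. The part of fat tissue in the rises of lipid genes was not tested.

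Heart markers rose in 5 of 17 with a median of 1.32, where 25.2% of all genes rose. Both count and median shifted with single saline arrays, and the median was 0.39 on slide 3 alone and 3.93 on slide 7 alone. Saline array 46 had a median of -1.99 against 0.14 to 0.80 on the other saline arrays and 0.86 to 1.85 on the dexamethasone arrays. Without it 2 rose and the median was 0.88, and without saline array 48 the count was 8. Sln, a regulator of the calcium pump of atrial muscle, was 2.85 as processed here and 1.36 (adjusted p = 0.25) without array 46. The log2 of the summed signal of these markers was 5.43 to 6.39 with dexamethasone and 3.77 to 5.53 with saline.

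In a list of FoxO and insulin signalling genes and brakes on mTOR, 14 of 24 rose and 1 fell (median 0.48). On the dimmest probes 8 rose (median 0.32). The list mixes carriers of the signal, such as the receptor Igf1r, with brakes, so its counts are not counts of brakes. Sesn1, a sestrin that restrains mTOR, rose by 1.50, with its 3 probes between 0.44 and 1.50, and Bnip3, a mitophagy receptor, by 1.48. Foxo1 rose by 0.56 and Igf1r by 0.82. Pik3r1, a regulatory subunit of PI3 kinase, fell by 0.41 on its brightest probe. Its probes lay on both sides of 0, so no direction can be read. With quantile normalization and the mean of probes together no member of the list fell. Glucose handling was mixed, with 9 of 24 higher and 5 lower (median 0.24): Slc2a4, the insulin-responsive transporter of fat and muscle, rose by 1.33, Pcx, pyruvate carboxylase, by 0.88, and Hk3, a hexokinase of myeloid cells, fell by 0.92.

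Amino acid use is the field in which Klf15 is best known, and in the knockout this group was mixed. Of 34 genes of amino acid breakdown other than the branched-chain route 13 rose and 6 fell (median 0.28). Of all genes 25.2% rose and 17.7% fell in the knockout at 8 h. In wild-type lung at 8 h 14 of the 34 rose and 2 fell (median 0.23). There 9.46% of all genes rose and 14.5% fell, a smaller share of rises than in the knockout. Tat, tyrosine aminotransferase and a classical glucocorticoid target, read 0.53, 0.36, -0.36 and -0.49 with dexamethasone and -2.79, -2.35, -2.69 and -2.27 with saline. It rose by 2.53 (SE 0.25, adjusted p = 3.5e-08). Gldc, of glycine cleavage, rose by 2.03, Abat, which degrades GABA, by 1.92, and Arg2, the mitochondrial arginase, by 1.33. Kmo, of the kynurenine route, fell by 1.90. Prodh, proline dehydrogenase, differed by 0.28 without passing, and Aass, of lysine breakdown, rose by 0.34. Of 25 branched-chain genes 9 rose and 5 fell (median 0.17; 5 and 3 with quantile normalization and the mean of probes together), with Aldh6a1 up by 0.73 and Bckdk, the kinase that restrains the route, down by 0.38. Without saline array 48 the falls were 3. Of the same 25 genes 7 rose and none fell in wild-type lung at 8 h (median 0.19), to be read against the same wild-type shares. Among 22 transporters 9 rose and 4 fell (median 0.18, and -0.05 under quantile normalization). Slc38a4 read 0.96, 1.18, 0.85 and 0.91 against -1.56, -1.37, -1.04 and -1.30 and rose by 2.29 (adjusted p = 4.2e-12), Slc43a2 rose by 1.61, and Slc7a10, a transporter of small neutral amino acids, fell by 2.48.

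Fatty acid and cholesterol synthesis was lower in 10 and higher in 6 of 31 genes (median -0.12). Under quantile normalization 11 were lower and 2 higher (median -0.22). Among the falls were Cyp51 and Dhcr7 of sterol synthesis, each down by 0.87, Mvk, mevalonate kinase, down by 0.87, Lss, lanosterol synthase, by 0.65 and Fads2, a fatty acid desaturase, by 0.85. Rises were found in Scd2, a desaturase (0.67), in Fasn, fatty acid synthase (0.60), and in Insig2, which holds back sterol-sensing factors (0.73). Fasn lost its call under quantile normalization (0.31, adjusted p = 0.053).

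Lymphocyte markers were lower on every list. Of 17 natural killer and cytotoxic genes all 17 fell (median -2.07), of 16 B-cell genes 13 fell (median -2.03), and of 21 T-cell genes 17 fell (median -1.11), with no rise in any of the 3 lists, where 17.7% of all genes fell. Of the natural killer and cytotoxic genes 12 to 17 were well above background on the dexamethasone arrays and 17 on every saline array. Some of their values with dexamethasone thus lie near background. The list's median was -1.44 on slide 3 alone and -1.54 on slide 7 alone. In a whole-tissue sample fewer cells of a type and less RNA per cell cannot be told apart. Prf1, the pore-forming perforin, read -4.74, -4.51, -4.11 and -4.50 with dexamethasone and -1.92, -1.68, -1.35 and -1.53 with saline. Its treated arrays were all lower by more than 2 log2 units, and the fall was by 2.85 (SE 0.30, adjusted p = 1e-07). Cd8a, the coreceptor of cytotoxic T cells, fell by 2.47, Lck, the kinase of the T-cell receptor, by 2.23, and Ccr7, which guides lymphocytes to lymph nodes, by 2.21. Cd4 (0.01), Cd3e (-0.17) and Lef1 (-0.19) did not pass, although Cd3d and Cd3g, which encode the same complex as Cd3e, fell by 1.52 and 1.40.

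Myeloid lists were uneven. Monocyte, interstitial macrophage and dendritic cell genes fell in 10 and rose in 4 of 22 (median -0.33), and under quantile normalization 11 fell and 1 rose. Treml4, of patrolling monocytes and dendritic cells, read -3.06, -3.46, -3.26 and -2.99 against -0.42, -0.54, -0.24 and -0.38 and fell by 2.80 (adjusted p = 2.4e-13). Siglech of plasmacytoid dendritic cells fell by 2.53 and Cx3cr1 by 1.80, whereas the pan-macrophage gene Adgre1 differed by -0.06 and the complement genes C1qa by 0.27 and C1qb by 0.38, none of which passed. Alveolar macrophage genes rose in 5 and fell in 6 of 15 (median 0.02), and 2 rose under quantile normalization and 3 without dexamethasone array 61. Neutrophil genes fell in 6 and rose in 2 of 19 (median -0.35, 0.21 on slide 3 alone and -1.62 on slide 7 alone). Il1b, the cytokine, fell by 2.76 and Csf3r, the receptor for the granulocyte growth factor, by 2.26. Mmp8 rose by 1.84, and S100a8 (-0.51) and S100a9 (-0.35), the most abundant neutrophil transcripts, did not pass. Saline array 47 had a neutrophil median of -0.51 against 0.24 to 0.31 on the other saline arrays, and without it the list's median change was -0.73. Mast cell, basophil and eosinophil genes rose in 2 and fell in 2 of 13, the 2 rises not holding without single arrays.

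Antigen presentation and interferon-stimulated genes fell without exception among those that passed. Of 13 genes for MHC class II presentation 9 fell (median -1.13). Ciita, the master regulator of these genes, read -2.46, -2.41, -2.32 and -2.35 with dexamethasone and 0.05, -0.02, 0.58 and 0.28 with saline, a fall by 2.61 (adjusted p = 2.2e-06) with no overlap. H2-DMb2 fell by 2.31 and H2-Ob by 2.21, whereas the invariant chain Cd74 differed by -0.33 and did not pass. Of 29 interferon-stimulated genes 22 fell (median -0.89), among them Irf7 by 1.10, Ifit3 by 1.08, Zbp1 by 1.74 and Oas3 by 1.12.

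Chemokines and their receptors fell in 19 and rose in 2 of 35 (median -0.74), and cytokines and their receptors fell in 14 and rose in 6 of 38 (median -0.38; 3 rose without saline array 47). Ccl4, which draws lymphocytes and monocytes, fell by 2.11 and Tnf by 1.10. Cxcl12, the chemokine of stromal and endothelial cells, read 1.98, 2.39, 2.47 and 2.59 against 4.25, 3.95, 3.70 and 3.86 and fell by 1.58 (adjusted p = 4.2e-08). Ccl2 (0.64), Cxcl1 (0.22) and Il6 (-0.40), inflammatory genes that glucocorticoids are known to repress, did not pass at 8 h. Ccl9 and Ccl11 rose, each by 0.93. Leukocyte adhesion genes fell in 13 and rose in 1 of 22 (median -0.40), Icam1 by 1.07, while the endothelial Vcam1 (-0.26) and Sele (0.80) did not pass.

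**Figure D4:**
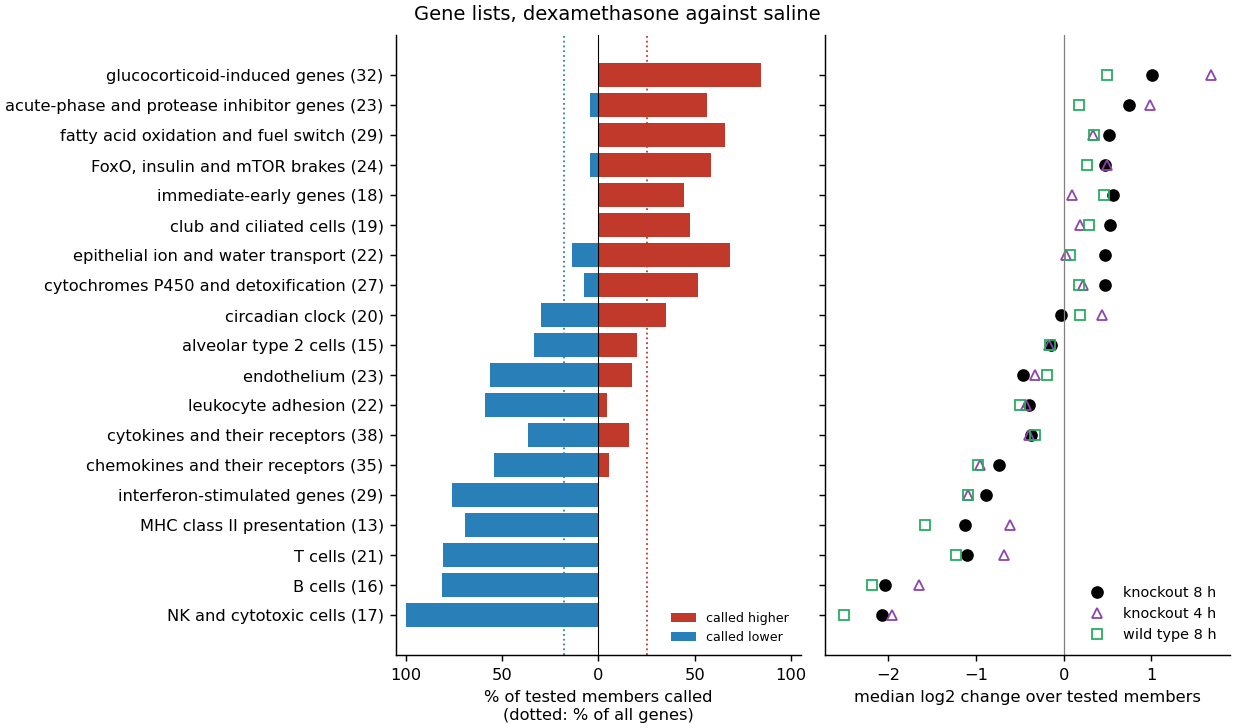
Left, the percent of tested members that rose (bars to the right) or fell (bars to the left) in the knockout at 8 h for 19 gene lists (number tested in brackets), with dotted lines at the 25.2% and 17.7% of all genes. Right, the median log2 change of the tested members (x axis) in the knockout at 8 h, the knockout at 4 h and wild-type lung at 8 h: the natural killer list lies at -2.07, -1.95 and -2.51, and the glucocorticoid-induced list at 1.01, 1.68 and 0.49.

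Endothelial genes fell in 13 and rose in 4 of 23 (median -0.46), with 2 rises under quantile normalization. Beside Apln, its receptor Aplnr fell by 2.67, Tek, the angiopoietin receptor, by 1.10, Kdr, the main receptor for VEGF, by 0.69 and Pecam1 by 0.83. Cdh5 (-0.04) and Esam (-0.09), junction proteins found throughout the endothelium, did not pass. Lyve1 of lymphatic vessels rose by 1.35 and Flt1, a VEGF receptor that also acts as a sink, by 0.85. Smooth muscle genes rose in 6 and fell in 3 of 13 (median 0.12, and -0.10 under quantile normalization), with Rgs5 of pericytes up by 1.67 and Acta2 at 0.12 without passing. Matrix genes rose in 8 and fell in 4 of 32 (median 0.01), where 25.2% of all genes rose and 17.7% fell. Without dexamethasone array 61 9 of them fell. Col4a1 of basement membranes rose by 0.91 and Timp3, an inhibitor of matrix proteases, by 0.95; Tnc, tenascin, fell by 1.24 and Loxl1, which cross-links elastin, by 1.25, while Col1a1 (-0.22) and Col3a1 (-0.48) did not pass.

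Clock genes moved in opposite directions, 7 up and 6 down of 20 (median -0.03). Arntl, the positive arm of the clock, read -1.23, -1.34, -1.52 and -1.18 with dexamethasone and -2.67, -2.68, -2.79 and -2.49 with saline. It rose by 1.34 (adjusted p = 3e-07), and its partner Clock by 0.81. Dbp, an output gene that Arntl activates, read 3.79, 3.85, 4.03 and 3.92 against 5.45, 5.28, 5.18 and 4.88 and fell by 1.30 (adjusted p = 1.9e-07), and the repressor Nr1d1 fell by 1.36. Nfil3, which opposes Dbp, rose by 1.10.

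Of 28 proliferation genes 7 fell, 1 rose and 20 did not pass (median -0.10), where 17.7% of all genes fell. Mcm5 and Mcm2, of the replicative helicase, fell by 1.12 and 1.01, Tk1, thymidine kinase, by 1.11 and E2f1, the factor that drives entry into S phase, by 1.02. Mki67 (-0.18) and Top2a (-0.56) did not pass. Cell cycle inhibitors rose in 10 and fell in 2 of 18 (median 0.28), led by Cdkn1a and by Gadd45g, up by 1.92. Apoptosis genes split into 9 rises and 8 falls of 24 (median 0.11), with 4 falls on the dimmest probes. Pmaip1, a killer of the BH3 class, rose by 2.41, as did Bcl2l1, a survival gene, by 0.93, while Bcl2 fell by 0.51 and Bid by 0.65. Of 20 heat shock and unfolded protein genes 10 rose and 1 fell (median 0.25), with Hspb8 up by 1.16; under quantile normalization 6 rose and 2 fell, and 6 and 3 with the mean of probes as well (median 0.09). Immediate-early genes rose in 8 of 18 and fell in none (median 0.56), among them Fos (1.51), Maff (1.56) and Junb (0.80).

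The response at 8 h was set beside that of the knockout at 4 h, where 6503 genes (42.3%) changed, 3661 up (23.8%) and 2842 down (18.5%). The 2 times share no arrays. Of the rises at 8 h 74.5% had also risen at 4 h, which is 78.7% of the rises at 4 h, and of the falls 75.3% had also fallen, which is 72.1% of those at 4 h; 22 rises at 8 h had fallen at 4 h and 6 falls had risen. The change itself differed between the times for 465 genes (3.03%), 206 with a higher value at 8 h (1.34%) and 259 with a lower (1.69%). Of the 259, 158 were above 0 at both times and 47 below 0 at both.

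Glucocorticoid-induced genes had a median of 1.68 at 4 h (29 of 32 rose) and 1.01 at 8 h, and 8 of them were lower at 8 h by the test of the difference, none higher. Fkbp5 stood at 4.21 at 4 h and 1.31 at 8 h (difference -2.90, adjusted p = 0.013), Tsc22d3 at 1.69 and 0.57 (adjusted p = 0.0054), and Per1 at 0.97 and -0.07 (adjusted p = 0.028). Fam107a stood at 4.31 and 2.50 (difference -1.81, adjusted p = 2.9e-05). The others of the 8 were Arrdc2, Map3k6, Errfi1, Sult1a1 and Glul. Klf15 stood at 1.91 and 0.92, a difference that did not pass (adjusted p = 0.092). Of genes chosen by lowest p, Mcf2l, a guanine exchange factor, went from 1.79 to 0.60, Fam117b from 2.02 to 0.85 and Fas, the death receptor, from 1.79 to 0.65. Fat3, a cadherin, went from -0.23 to -2.21, a difference that held on its brightest probe and not with the mean of its probes (-1.07, adjusted p = 0.30).

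Other genes moved further from 0, fell less at 8 h than at 4 h (Sh3rf2 and Fzd2), or changed sign. Apln stood at -1.49 at 4 h and -3.47 at 8 h (difference adjusted p = 5.4e-04) and Cxcl12 at -0.24 and -1.58 (adjusted p = 0.0017). Arntl went from 0.43 to 1.34 (adjusted p = 0.025). Sh3rf2 went from -2.33 to -0.84, Fzd2, a Wnt receptor, from -1.83 to -0.46 and Rab11fip1 from -0.53 to 0.42. Of the chemokines named above, Ccl2 was -2.09 at 4 h and 0.64 at 8 h (difference adjusted p = 0.0075), and Cxcl1 -1.25 and 0.22 (adjusted p = 0.034).

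In wild-type lung at 8 h 3680 genes (24%) changed, 1453 up (9.46%) and 2227 down (14.5%), with 3 arrays a group in place of 4. Of the knockout's rises 28.8% had also risen in wild type, which is 76.7% of the wild-type rises, and of its falls 54% had also fallen, which is 65.9% of the wild-type falls. Opposite calls were found in 28 of the rises and 11 of the falls. A call in 1 genotype and not in the other is no test of a difference, and the test of the difference itself passed for 999 genes (6.5%), 741 with a higher value in the knockout (4.82%) and 258 with a lower (1.68%). Of the 741, 280 were above 0 in both genotypes and 424 were above 0 in the knockout and below 0 in wild type; most of these differences were small, 51 of the 741 and 14 of the 258 reaching 2-fold. Of the 310 of the 741 with several probes, 187 had all on 1 side of 0.

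This count was unstable. It was 378 under quantile normalization, 187 in the authors' deposited log2 values, 36 with median scaling and 325 with the bright-to-dim ratio as a covariate, and leaving out single arrays gave 342 to 1204. Without a single wild-type dexamethasone array it was 866 (array 54), 342 (array 55) and 622 (array 56). Without a single wild-type saline array it was 593 (array 37), 391 (array 38) and 663 (array 39). Without a single knockout dexamethasone array it was 1204 (array 61), 882 (array 62), 726 (array 63) and 430 (array 64). Without a single knockout saline array it was 1065 (array 45), 656 (array 46), 482 (array 47) and 703 (array 48). Single genes with the lowest p therefore come with that limit. Slc38a4, the transporter above, stood at 2.29 in the knockout and 0.96 in wild type (difference 1.33, adjusted p = 0.0016). Syt12, a synaptotagmin, stood at 1.40 and 0.15 (difference 1.25, adjusted p = 0.0016). Fah, the last enzyme of tyrosine breakdown, stood at -0.38 and 0.42 (difference -0.80, adjusted p = 8.3e-04), and Bckdhb, a subunit of the branched-chain dehydrogenase, at -0.15 and 0.45 (difference -0.60, adjusted p = 8.3e-04). Both were lower in the knockout, and 2 further enzymes of branched-chain breakdown, Mccc2 and Acad8, and Dbt of the same dehydrogenase were lower by the same test, with Oxct1 higher. The difference for Bckdhb did not pass in the deposited log2 values (-0.41, adjusted p = 0.17) or on its dimmest probe (-0.38, adjusted p = 0.16).

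Differences that lost their call under other scalings were those of Nfe2l1, 0.70 in the knockout and 0.12 in wild type, Farp1 (0.38 and -0.14), Mdh2, mitochondrial malate dehydrogenase (0.58 and -0.07), and Fasn (0.60 and -0.26). Under median scaling the adjusted p of these 4 was 0.057 to 0.065. The acute-phase list had 4 members higher in the knockout by this test, Orm1 (3.33 and 1.63), Orm2 (3.45 and 2.12), Serpina3m (2.24 and 1.72) and C3 (0.73 and -0.06), and the glucocorticoid-induced list had 5 higher and none lower. Among those 5 were Glul (1.62 and 0.85), Lpin1 (1.86 and 0.81) and Sult1a1 (1.37 and 0.89). The lymphocyte markers gave similar values in both genotypes: medians were -2.07 and -2.51 for natural killer genes, -2.03 and -2.18 for B-cell genes and -1.11 and -1.23 for T-cell genes, and of these 54 genes Blnk passed the test as higher and Tcf7 as lower in the knockout.

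**Figure D5:**
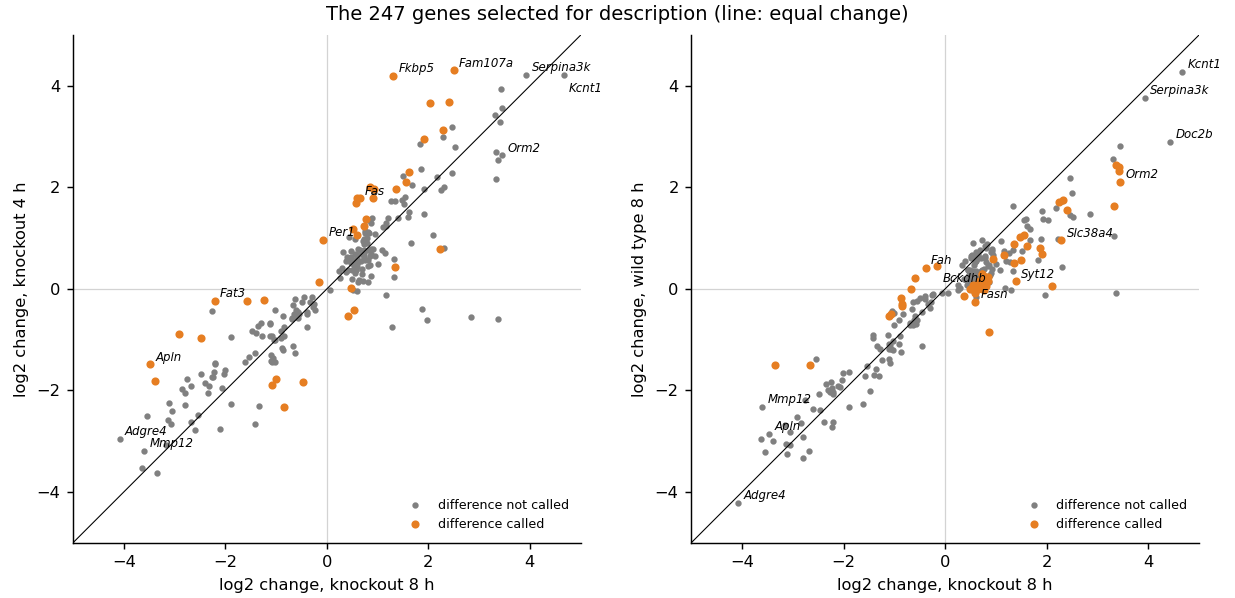
The 247 genes chosen for description, each a point at its log2 change in the knockout at 8 h (x axis) and its log2 change in the knockout at 4 h (y axis, left) or in wild-type lung at 8 h (y axis, right), with a line of equal change. Orange points passed the test of the difference: Fkbp5 lies at 1.31 at 8 h and 4.21 at 4 h, and Slc38a4 at 2.29 in the knockout and 0.96 in wild type.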

How the data were processed

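Total RNA of mouse lung was amplified, labelled with Cy3 and hybridised to Agilent 4x44K mouse arrays with 1 colour, as the labels' protocols state. Spot intensity comes from the deposited scanner files, in which the signal is background-subtracted and detrended within each array. Per the file headers this was done with Agilent Feature Extraction 10.7.3.1, and the submitters' processing notes give 10.6. The authors' deposited series table of log2 values, with a method not given in the sources used here, served as an alternative.

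Control and outlier spots (0.101 to 0.184% on the 8 arrays) were dropped, and none was saturated. Each array's processed signals were put on the log2 scale and its 75th percentile was subtracted. A probe was kept if at least 3 arrays of some group had it well above background (33951 probes), and the brightest stood for its gene. Of 41174 probes 24844 matched 1 gene of RefSeq GRCm38.p6 by accession and 16330 none; the design build is mm9, so probes carry no coordinates. Replicates are samples described by the labels as biological; as the animals are not named, p-values measure the spread between these samples. All 29 arrays entered 1 model of 8 group means in limma 3.58.1 in R 4.3.3 (lmFit, eBayes), after a test on simulated data, with Benjamini-Hochberg adjustment within each comparison. Where no array of the lower group was well above background, a bound was computed from the mean of the higher group and the mean, over the lower group's arrays, of the dimmest well-detected probe or the gene's own signal, whichever was larger.

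Genes were named by a rule: Klf15, Nr3c1, Fkbp5, Tsc22d3, Per1 and Mt2; the called genes with the 12 largest rises and the 12 largest falls, without overlap between arrays and with all probes on 1 side of 0; the 8 genes of lowest p in each test of a difference; up to 5 members of each gene list; and 6 genes with widely opposed probes. Some genes that the rule names are not reported here. Other list members, the 14 genes with the promoter letters and the markers that did not pass were named after their values were seen. The groups, lists and rules were chosen with earlier results of these data known. Alternatives were other scalings, background corrections, filters, probe choices, variance models, slide as a block (consensus correlation 0.405), single slides, leaving out each array, and the deposited table. Normexp used the median signal because the files used here do not give the mean.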

Additional observations from a re-analysis of the deposited data

Results flagged for a closer look

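In groups of 4 arrays, 6 of 150 sets of values held an array set apart by Dixon's test at the 95% level. Its gap to the nearest other array, divided by the range of the 4 values, exceeded the critical value. Chance flags about 1 in 20 such groups. Acute-phase genes had a median of 0.57 on dexamethasone array 63, against 0.80 to 0.81 on the others of its group, and of 0.16 on saline array 48, against -0.12 to -0.081. Neutrophil genes had a median of -0.51 on saline array 47, against 0.24 to 0.31. Smooth muscle genes had 0.29 on dexamethasone array 62, against 0.18 to 0.19. Other amino acid catabolism had 0.0082 on saline array 48, against -0.012 to -0.0097. Fcer2a read -1.63 on saline array 47, against -1.09 to -0.98.

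Another set of genes was singled out because the test of the difference itself passed. Between genotypes at 8 h (knockout minus wild type) these were Nfe2l1 at 0.58, Bckdhb at -0.60, Fah at -0.80, Farp1 at 0.52, Mdh2 at 0.65, Slc38a4 at 1.33, Syt12 at 1.25 and Fasn at 0.86. Between times in the knockout (8 h minus 4 h) these were Fat3 at -1.98, Mcf2l at -1.19, Sh3rf2 at 1.49, Fam117b at -1.16, Fam107a at -1.81, Fzd2 at 1.37, Fas at -1.14 and Rab11fip1 at 0.94.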

How the results depend on the processing

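The count of changed genes in the knockout at 8 h lay between 5291 and 9073 under the alternatives run, and between 5869 and 6612 with 1 array left out. Rises numbered 2374 with quantile normalization and the mean of probes together, an alternative chosen after seeing the data. The count of genes whose effect differed between genotypes, 999 as reported, was 378 under quantile normalization, 36 with median scaling, 163 after normexp, 652 with the mean of probes, 514 with slide as a fixed block, 325 with the bright-to-dim covariate, 3256 with array weights, 187 in the deposited log2 values and 291 with quantile normalization and the mean of probes. Without single arrays it ranged from 342 to 1204. The count that differed between times, 465, was 206 with median scaling, 913 with slide as a random block, 1837 with array weights, and 283 (without knockout saline array 41) to 487 without single arrays. The bright-to-dim difference was 0.201 after quantile normalization.

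Of 244 named genes called at 8 h, 182 kept the call under every alternative run, 52 lost it under at least 1 and 10 changed sign under at least 1. Under quantile normalization, normexp, the deposited values and quantile normalization with the mean of probes, Sftpc gave -0.014, -0.012, -0.016 and -0.014 and Hbb-bt -0.054, -0.040, -0.045 and -0.054. Hba-a1 gave -7.1e-05 after normexp and Klf6 -0.0061 under quantile normalization. On slide 3 alone Akap5 gave 0.00078 and Krt5 -0.022. With the mean of probes, the dimmest probe and quantile normalization with the mean of probes, Fam126b gave -0.31, -1.45 and -0.28, Dnah2 -0.057, -0.97 and -0.057, Fam13c 0.28, 1.11 and 0.25, and Rad21 -0.30, -1.07 and -0.39. Chrdl1 gave -1.99 with the dimmest probe. The cause was not tested. No paired analysis was possible because the groups share no replicate numbers. Slide served as a block instead, with 1 array of each group together on slide 3 and on slide 7, and 8329 (fixed block) or 7938 (random block) genes changed. Dim probes limit the precision of the genes read near background, and 4 arrays a group limit all others.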

Other observations

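Markers of other tissues gave values that belong in no comparison above. Krt5, a keratin of basal epithelium, was 1.97 higher with dexamethasone as processed but short of the threshold without any 1 of 6 arrays. Tg, thyroglobulin, rose by 0.57, and Krt4 (0.74) and Krt13 (-0.46) of the esophagus did not pass. Erythroid markers rose in 2 of 10, Hba-a1 by 0.50 and Hbb-bt by 0.38, and in none under quantile normalization. Actn3 of skeletal muscle rose by 2.10, while Ckm (1.05) and Myh4 (1.26) did not pass.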
